A study of Oncorhynchus mykiss with 525 samples.

Results

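The chemicals coded cln and thx were compared at their highest concentrations, conc 1 and conc 2, in RTgill-W1, an epithelial cell line grown from rainbow trout gill. The members are the 12 wells of conc 1 and conc 2 of both chemicals in batch 1, chosen by chemical and concentration number, out of 501 wells with counts in the series. One of them, the conc 1 well of thx on plate 1, held 16054 counts, which is under 10% of the median well of 240948 counts, and was left out, so that 11 wells were tested. Another related chemical, coded imi, has 24 wells in the labels and was not analysed here.

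The gill epithelium is the surface through which a fish breathes, balances salts and takes up dissolved chemicals, and a line of its cells is used in plates as a stand-in for whole fish in acute toxicity tests. Cells that face a chemical at a harmful concentration can lose RNA because fewer of them remain or because each holds less. In wells lysed whole, fewer cells and less RNA per cell cannot be told apart.

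Exposure lasted 24 h on multi-well plates. Each well's RNA received a code of its own, was pooled with that of other wells and was counted per gene. The groups were cln at a labelled concentration of 249.68 (conc 1) and 83.23 (conc 2), thx at 291.71 and 97.24, and 24 batch 1 wells with DMSO, the solvent control. These 24 are the wells that the deposited tables of cln and thx hold at concentration 0, in libraries of the same plates. A header line of the solvent table marks 12 of them as batch 1 and 12 as batch 2, along no library boundary, and this conflict was not resolved. The labels give no unit for the concentrations, and at each step that of thx is 1.17 times that of cln, less than the 3-fold step of the dilution series. Each chemical had 1 well per concentration on each of 3 plates, taken as the 3 cell passages of the design, in 8 steps down to conc 8. According to the design text the pesticides were dissolved in DMSO or in water, and the labels do not say in which of these cln and thx were given. On a plate the wells of cln, thx and solvent were pooled into different libraries, so that library and chemical cannot be told apart in a comparison with solvent. The files do not pair the Ensembl gene IDs with gene names, and 0 of 44260 IDs matched the reference gene table. The gill epithelial identity of the cells could therefore not be checked against markers, no pathway could be described, and genes are given by ID.

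Totals ranged from 72537 to 499015 counts over the 24 cln wells, from 16054 to 483728 over the 24 thx wells, and from 25250 to 539790 over the solvent wells. The 4 most counted IDs took 18.7% to 27.8% of the counts in the solvent wells of plate 1, against 35.6% to 43.3% in the cln wells and 24.2% to 36.2% in the thx wells of that plate. On plates 2 and 3 the ranges of the 3 groups overlapped. Concentration coincided with plate row, with conc 1 in row H and conc 2 in row G, and every cln well lay in plate column 2 and every thx well in column 7. Position on the plate moved with the counts in the whole series. The total of a well relative to the other wells of its library, taken as a median per position, was correlated between the plates of batch 1 and those of batch 2, which held other chemicals. Pearson's r across positions was 0.61 over all rows (82 positions). It was 0.93 to 0.98 within rows A to D and 0.82 within row E (11 positions each). Within rows F, G and H it was 0.69, 0.64 and 0.44 (9 positions each). Wells at 1 position share row and column, and these correlations are a description without a test.

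The first question was whether the wells of the highest concentrations held less RNA. The 3 cln wells of conc 1 held 72537, 99471 and 237917 counts on plates 1, 2 and 3. They held 49%, 41.2% and 57.8% of the median of the other 7 cln wells of their plate, all 3 below it. The 3 thx wells of conc 1 held 16054, 25729 and 90950 counts, or 16.8%, 13.8% and 23.9% of the other 7 thx wells. Every conc 1 well of thx was thus lower in relative total than every conc 1 well of cln. Against the solvent wells of the plate, the cln wells stood at 58.6%, 54.3% and 99.1%, so that the plate 3 well was not lower than solvent, and the thx wells at 13%, 14.1% and 37.9%.

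Averaged over plates on the log2 scale, the conc 1 well stood at 48.9% of its reference for cln (mean log2 -1.03 ± 0.24, SD, n = 3) and at 17.7% for thx (mean log2 -2.50 ± 0.40, SD, n = 3). An exact two-sided permutation test that moved the conc 1 well over the 8 wells of each plate (512 arrangements) gave an adjusted p of 0.00781 for either chemical, over the 4 tests of totals. At conc 2 the totals were 58.2% of the reference for cln (exact permutation p, adjusted, 0.0495) and 59% for thx (exact permutation p, adjusted, 0.324). The mean log2 was -0.78 ± 0.10 for cln and -0.76 ± 0.11 for thx (SD, n = 3). For thx the test also moved over its conc 1 and conc 3 wells, which were lower than its conc 2 well on every plate. The p-values at conc 2 are therefore no comparison of the chemicals. These tests take the 8 wells of a column as exchangeable. Relative totals recurred by position, so that the p-values do not separate concentration from position. The relative totals of the chemicals differed by 1.47 on the log2 scale at conc 1, with cln higher on 3 of 3 plates. An exact two-sided permutation test that moved the relative totals freely between the chemicals gave p = 0.1 (n = 3 and 3). That is the smallest p that its 20 arrangements allow. The test did not use the pairing of the wells by plate. At conc 2 the difference was -0.02 on the log2 scale (exact permutation p = 0.8, n = 3 and 3).

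**Figure D1:**
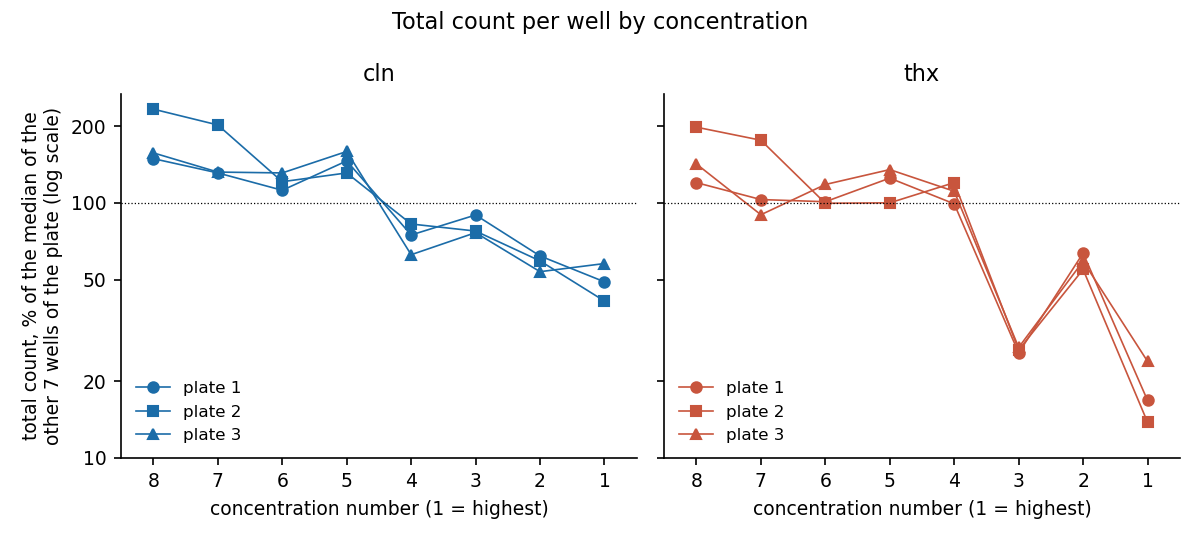
Total count of each well as a percentage of the median of the other 7 wells of its chemical on the plate (log axis), by concentration number from 8 (lowest) to 1 (highest); symbols are the 3 plates. The conc 1 wells lie at 41.2% to 57.8% for cln and at 13.8% to 23.9% for thx, and the conc 3 wells of thx at 25.8% to 27.1% lie below its conc 2 wells.

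The series of thx did not fall step by step. Relative to all other wells of the library, its conc 3 wells held 25.6%, 26.6% and 29.5% of the median total on plates 1, 2 and 3, and its conc 2 wells 62.8%, 55% and 64.1%. The wells at the same positions on the plates of the other batch, of the chemical coded smet, held 23.2%, 20.7% and 22.2% at conc 3 and 54.5%, 57.5% and 41.8% at conc 2. At the position of thx conc 1 the 3 smet wells, also of conc 1, were lower still, at 5.01%, 0.774% and 0.712%. One well of another chemical, diz conc 1 on plate 6, lay at the position of cln conc 1. It held 46.9%, against 54.7%, 45.3% and 75.6% for cln. Conc 1 is the highest concentration of smet and diz too, so that position and highest concentration cannot be told apart in these wells. Low totals at these wells thus also occurred with other chemicals at the same position. Low totals occurred without a chemical too: in row E of column 10, solvent wells held 20.6% and 15.1% on plates 2 and 3. At that position on the other batch's plates, wells of the chemical coded dic held 11.1% to 16.4%. The other solvent wells of plates 2 and 3 held 32.8% to 290%. The part of position in the totals was not tested.

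The next question was which genes changed at conc 1 against solvent. In edgeR's quasi-likelihood test with plate as a block and a Benjamini-Hochberg FDR below 0.05, 15 genes rose and 4 fell at cln conc 1, 0.367% of 5175 tested. At thx conc 1, tested in 2 wells, 9 genes rose (0.174%) and 20 fell (0.386%), 0.56% of those tested in all. For thx the direction depended on the scaling. The median log2 change of all genes was -0.30 with TMM scaling, and with DESeq2's size factors in the same test it was 0.01, with 25 genes up and 7 down. The count for thx shifted without its replicate 3 (plate 2, 25729 counts) and without its replicate 1 (plate 3). Each of these fits rested on 1 thx conc 1 well. For cln conc 1 the count was 8 without replicate 3.

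At conc 2, 13 genes rose (0.251%) and 2 fell (0.0386%) with cln, 0.29% of the genes tested, and 1 gene rose with thx, 0.0193%. Leaving out cln replicate 1 cut the calls at cln conc 2 to 5, and leaving out replicate 2 or 3 cut them to 8, with 0 falls in each case. The call counts against solvent did not follow the concentration of cln. They were 20 genes at conc 3 (0.386%), 11 at conc 4 (0.213%), 32 at conc 5 (0.618%), 13 at conc 6 (0.251%), 18 at conc 7 (0.348%) and 20 at conc 8 (0.386%), so that as many genes differed from solvent at the lowest concentration as at the highest. For thx they were 5 at conc 3 (0.0966%), 6 at conc 4 and at conc 5 (0.116%), 10 at conc 6 (0.193%), 5 at conc 7 (0.0966%) and 2 at conc 8 (0.0386%). The solvent wells lie in other libraries. At conc 8 the 15 genes that rose at cln conc 1 had a median log2 change of 0.08 against solvent. The 13 that rose at cln conc 2 had a median of 0.63 at conc 8, close to their median of 0.73 at conc 2. The median over all genes tested was -0.01 at cln conc 8. Both sets were picked against the same solvent wells.

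Another comparison set each chemical against its own conc 6, 7 and 8 wells, which lie in the same libraries. Plate and not library was the block, and thx conc 1 had no plate 1 well. The contrast of thx conc 1 thus also used plate differences fitted over the other libraries of the model. At conc 1, 12 genes were higher and 5 lower with cln, 0.329% of the genes tested. With thx, 24 were higher (0.464%) and 71 lower (1.37%), 1.84% in all. At conc 2 the counts were 4 higher and 1 lower for cln, 0.0966%, and 1 higher for thx, 0.0193%. At conc 3 of thx, where totals were low, 5 genes were higher and 24 lower, 0.56%, although at conc 2 with a 3-fold higher concentration only 1 was called. Calls were more at the steps of thx with low totals than at conc 2, and the part of depth in them was not tested. When the wells of conc 1, conc 2 and solvent were thinned to at most 25250 counts, 7 genes were called for cln conc 1 and 11 for thx conc 1 against solvent.

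**Figure D2:**
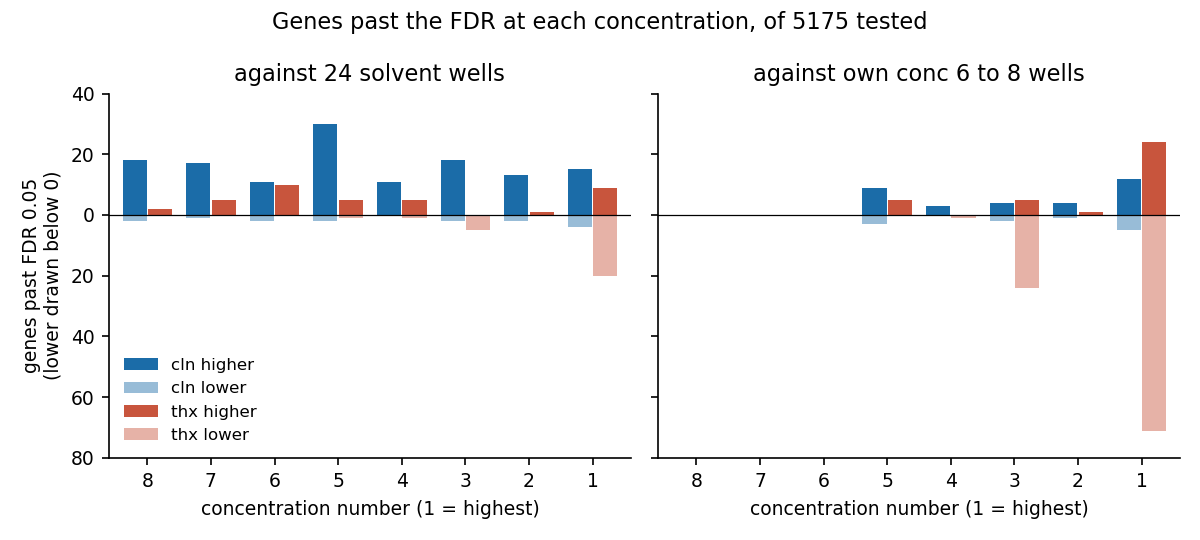
Number of genes past an FDR of 0.05 at each concentration number, of 5175 tested, against the 24 solvent wells (left) and against the chemical's own conc 6 to 8 wells (right, conc 1 to 5); bars above 0 are genes higher and bars below 0 genes lower. Against solvent, cln had 20 calls at conc 8 and 19 at conc 1. Against its own conc 6 to 8 wells thx had 95 calls at conc 1, 1 at conc 2 and 29 at conc 3.

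A gene that rose with both chemicals was ENSOMYG00000013240, the largest rise at cln conc 1 by the rule for named genes. Its level was 427, 643 and 488 counts per 1e6 counts of the well (CPM) in the cln conc 1 wells of plates 1, 2 and 3. Across the 24 solvent wells it ranged from 34.6 to 204 CPM with a median of 111. All 3 cln wells lay above every solvent well and above the other 21 cln wells, which ranged from 27.2 to 126 CPM.

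Its level in the thx conc 1 wells was 428 and 418 CPM on plates 2 and 3, above every solvent well, and 125 CPM (2 counts) in the well left out on plate 1. The fitted log2 change against solvent was 2.39 for cln (SE 0.22, edgeR FDR 1.1e-16) and 1.62 for thx (SE 0.35, edgeR FDR 0.00448), or 1.93 for thx relative to the median of all genes. At conc 2 the log2 changes were 0.10 for cln and 0.37 for thx, and neither passed the FDR. The slope over the 8 steps of cln was 0.31 log2 per 3-fold (SE 0.05, edgeR FDR 6.2e-05), and that of thx was 0.22 (edgeR FDR 0.124). In the plot of CPM in every well the level was high at conc 1 of either chemical and not at conc 2. The difference between the chemicals at conc 1 was 0.76 on the log2 scale, with a 95% interval of -0.01 to 1.53. The call for thx was lost without its replicate 1 (log2 1.19) and without its replicate 3 (log2 1.68), where 1 thx well remained.

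ENSOMYG00000013240 was not high in row H of the solvent wells (log2 -0.22 against rows A to F, edgeR FDR 1). Of the 487 wells kept in the whole series, 14 were at or above the lowest conc 1 well of cln and thx. Among these, 6 lay at the 2 positions of cln and thx conc 1. They are the kept conc 1 wells of cln and thx, which the choice of the limit puts in the count, and the diz conc 1 well of 734 CPM. The other 8 lay elsewhere with 3 other chemicals. The 3 smet conc 1 wells at the position of thx conc 1, all left out for low totals, held 4 counts in 9403. That is 425 CPM, with an exact 95% Poisson interval of 116 to 1089 for counting error only. All 4 counts came from the plate 4 well, and the part of position was not tested.

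ENSOMYG00000002715 also rose at conc 1 with both chemicals, and was chosen after its values were seen. Its level was 193, 382 and 177 CPM with cln on plates 1, 2 and 3, and 622 and 440 CPM with thx on plates 2 and 3. The well left out held 62.3 CPM (1 count). The solvent wells ranged from 43.4 to 217 CPM with a median of 97.6, so that the thx wells lay above all of them and 2 of the 3 cln wells did not.

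Against solvent the log2 change of ENSOMYG00000002715 was 1.27 for cln (SE 0.25, edgeR FDR 8.0e-04) and 1.74 for thx (SE 0.31, edgeR FDR 2.4e-04), or 2.04 for thx relative to the median of all genes. Against the own conc 6 to 8 wells it was 1.22 for cln and 1.26 for thx. The chemicals differed by -0.47 at conc 1 (95% interval -1.21 to 0.27). The call for cln was lost without its replicate 3 (log2 1.00, edgeR FDR 0.569). That for thx was lost without its replicate 1 (log2 1.38), where 1 thx well remained. The highest of the 487 wells kept in the series was the diz conc 1 well at the position of cln conc 1, with 856 CPM. At the position of thx conc 1, the 3 smet conc 1 wells, all left out for low totals, held 6 counts in 9403. That is 638 CPM, with an exact 95% Poisson interval of 234 to 1389 for counting error only. The part of position in this gene was not tested.

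Set against their own conc 6 to 8 wells, the chemicals share no wells. Both contrasts come from 1 model, however, with plate differences fitted over all its libraries. In these contrasts 3 genes were called at conc 1 with both, and all 3 were higher with both. They were 17.6% of the 17 called for cln, where 1.84% of all genes tested were called for thx. They were 3.16% of the 95 called for thx, where 0.329% of all genes tested were called for cln. They include the 2 genes above. Across the 367 genes with a mean log2 CPM above 8, the log2 changes of cln and thx at conc 1 were correlated with Pearson's r of 0.45, and across all 5175 genes with r of 0.06. Genes are not independent replicates, and the wells of both chemicals share plates and row.

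**Figure D3:**
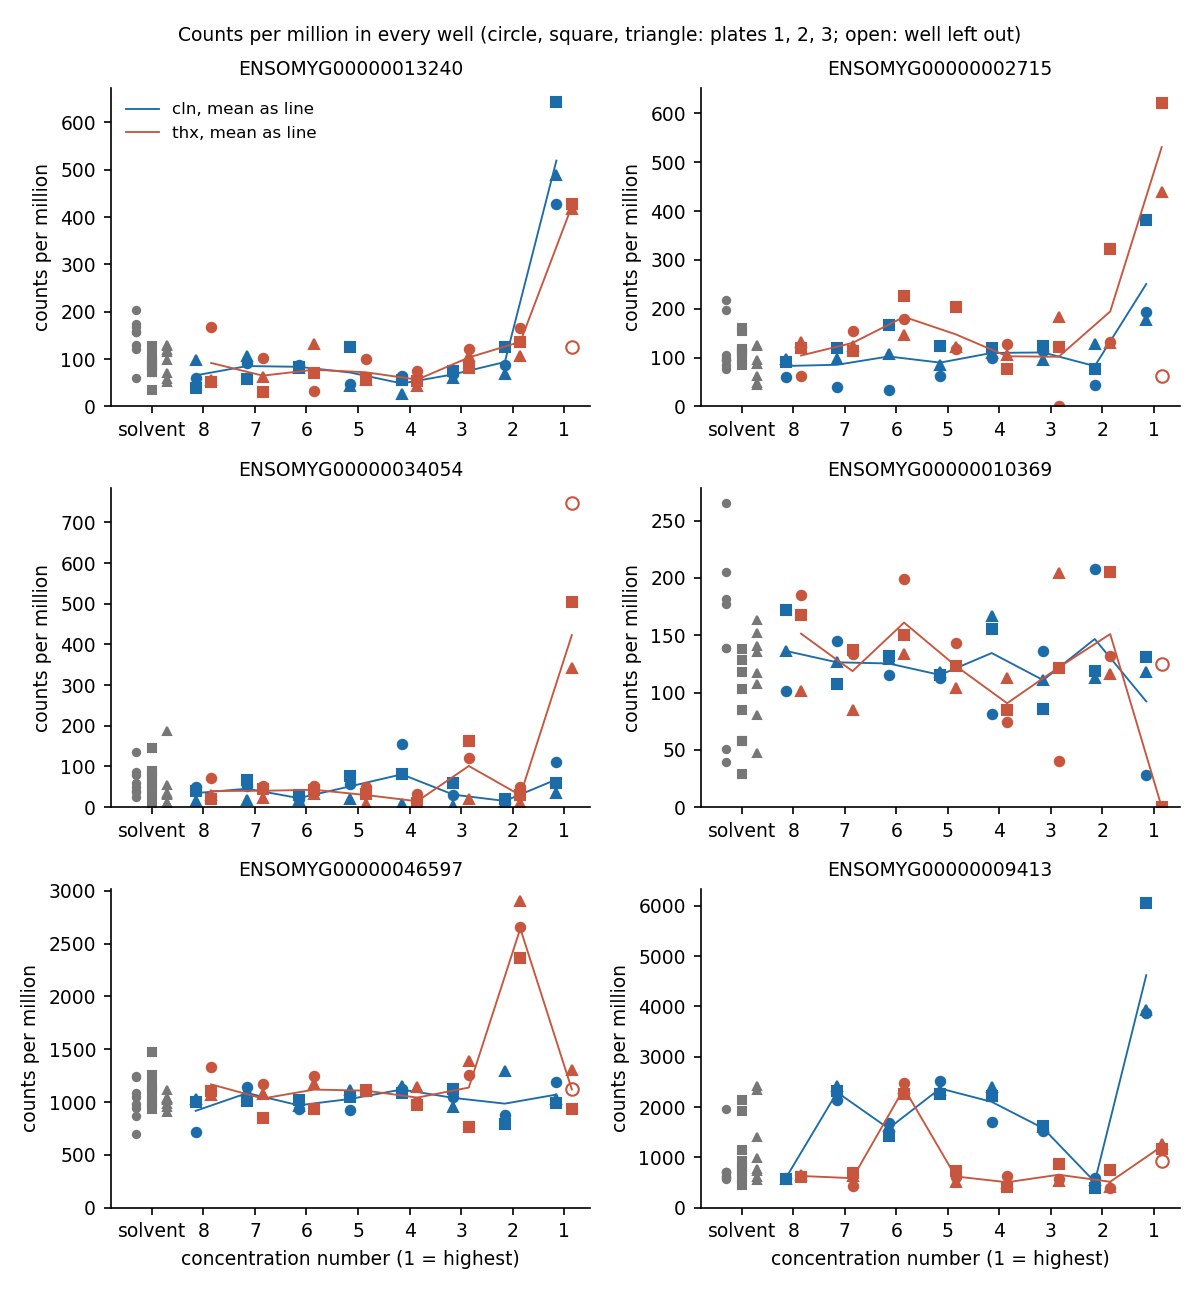
CPM of 6 genes in every well, by concentration number from 8 (lowest) to 1 (highest); blue is cln, red is thx, grey the solvent wells, lines join the means of the wells kept, and symbols are plates. In the wells kept, ENSOMYG00000013240 reaches 418 to 643 CPM at conc 1 of both chemicals and ENSOMYG00000034054 341 to 505 CPM at thx conc 1, where the open symbol of the well left out stands at 125 and 747 CPM; ENSOMYG00000046597 stands at 2362 to 2907 CPM at thx conc 2, and ENSOMYG00000009413 at 3874 to 6052 CPM at cln conc 1.

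The smallest FDR at thx conc 1 belonged to ENSOMYG00000034054, chosen after its values were seen. Its level was 505 CPM (13 counts) and 341 CPM (31 counts) in the wells kept on plates 2 and 3, and 747 CPM (12 counts) in the well left out on plate 1. The solvent wells ranged from 9.23 to 188 CPM with a median of 50.8, and the other 21 thx wells from 2.63 to 162 CPM. All 3 thx conc 1 wells lay above every solvent well.

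The log2 change of ENSOMYG00000034054 against solvent was 3.03 for thx (SE 0.42, edgeR FDR 2.0e-07), or 3.33 relative to the median of all genes. With cln conc 1 the levels were 110, 60.3 and 33.6 CPM, inside the range of the solvent wells, and the log2 change was 0.49 (edgeR FDR 0.881). The chemicals differed by -2.54 at conc 1 (95% interval -3.67 to -1.41, edgeR FDR 0.0169), with cln lower. The call of that difference was lost without cln replicate 2, cln replicate 3 or thx replicate 1, with values of -2.43, -2.41 and -1.65. Without thx replicate 1, 1 thx well remained. The 2 thx wells were the highest of the 487 wells kept in the series. At the same position on the other batch's plates, 3 wells of smet conc 1 held 3 counts in 9403, or 319 CPM. The exact 95% Poisson interval was 65.8 to 932 for counting error only, so that position and thx cannot be told apart at this depth.

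By the rule, ENSOMYG00000035178 was the largest fitted rise at thx conc 1. It had 3 and 6 counts (117 and 66 CPM) in the wells kept on plates 2 and 3 and 0 counts in the well left out, against 0 to 23.6 CPM in the solvent wells, of which 15 of 24 were at 0. Its log2 change was 4.18 (SE 0.97, edgeR FDR 0.0103). It rests on 9 counts, and it did not pass the FDR against the own conc 6 to 8 wells (3.42, edgeR FDR 0.058). The call was also lost without thx replicate 1 (log2 3.22) or replicate 3 (log2 4.55), where 1 thx well remained. The filter on low counts asked for enough counts in as many wells as the smallest group held, thx conc 1 with 2 wells. The gene may thus have entered the test through the wells where it was high, so its call is no independent support. With cln conc 1 the level was 0, 60.3 and 12.6 CPM (9 counts in all) on plates 1, 2 and 3. The log2 change for cln was 2.66 against solvent (edgeR FDR 0.278) and 4.37 against its own conc 6 to 8 wells (edgeR FDR 0.03), and the chemicals differed by -1.53 (95% interval -3.83 to 0.78).

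The fall that the rule took at thx conc 1, by fitted change, was ENSOMYG00000010369, which is no rank of measured size, since 0 counts give only a bound. Both wells kept had 0 counts in a summed total of 116679, whereas the solvent wells averaged 119 CPM ± 57.4 (SD, n = 24) with none at 0. The limit that 0 counts allow was taken as 3 counts over the group. By it, the level was at least 4.63-fold below the mean of the 24 solvent wells (edgeR FDR 0.00122 against solvent). It was at least 5.59-fold below the mean of the own conc 6 to 8 wells. Both means include plate 1, where no thx conc 1 well was kept. The solvent mean was 150 CPM on plate 1, and 89.6 and 118 CPM on plates 2 and 3. A bound against solvent on plates 2 and 3 alone would thus be lower. The well left out held 2 counts, or 125 CPM, which is inside the solvent range. With cln conc 1 the level was 27.6, 131 and 118 CPM, on average at least 3.58-fold higher than with thx. The difference between the chemicals passed the FDR (edgeR FDR 0.015), but not with all wells kept (log2 3.13, edgeR FDR 0.0827). That call was also lost without cln replicate 2 (edgeR FDR 0.143) or cln replicate 3 (edgeR FDR 0.0603). Without thx replicate 1 or thx replicate 3, where 1 thx well remained, it was lost too. The fall against solvent was lost without thx replicate 1, again with 1 thx well.

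The fall that the rule took at cln conc 1, by fitted change, was ENSOMYG00000021468, with 0 counts in all 3 wells, a summed total of 409925. Another of the 4 falls may be larger, since 0 counts give only a bound. The solvent wells averaged 28.1 CPM ± 17.3 (SD, n = 24) and 2 of them were at 0. The level with cln was at least 3.84-fold lower than in solvent (edgeR FDR 0.04). It was lost without any one of the 3 cln replicates (edgeR FDR 0.158 to 0.537). The thx conc 1 wells held 0 and 3 counts.

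At thx conc 2 the gene called was ENSOMYG00000046597, named after its values were seen. It stood at 2659, 2362 and 2907 CPM on plates 1, 2 and 3, above all 24 solvent wells (698 to 1475 CPM) and all 18 thx wells of conc 3 to 8 (768 to 1387 CPM). At thx conc 1, the higher concentration, the wells kept held 933 and 1308 CPM. The log2 change at conc 2 was 1.44 (SE 0.13, edgeR FDR 2.0e-17), and the chemicals differed by -1.20 there (95% interval -1.58 to -0.81, edgeR FDR 2.2e-05).

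The same position on the 3 plates of the other batch held smet at conc 2, with 2461, 2413 and 2976 CPM. These 3 wells and the 3 thx wells were the 6 highest of the 487 wells kept in the series, and the other 259 kept wells of the other batch had a median of 1056 CPM. The level was thus as high with another chemical at that position as with thx.

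ENSOMYG00000009413, also chosen after its values were seen, had the smallest FDR at cln conc 1. It reached 3874, 6052 and 3938 CPM there on plates 1, 2 and 3, against 460 to 2418 CPM in solvent, with a log2 change of 2.25 (SE 0.19, edgeR FDR 5.8e-19). In the thx conc 1 wells it was 1166 and 1275 CPM, and the chemicals differed by 2.50 (95% interval 1.72 to 3.27, edgeR FDR 1.3e-05).

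Its level did not follow the concentration of either chemical step by step. In solvent row F it was 719 CPM on plate 1, where the solvent wells lay in another column, and 2143 and 2344 CPM on plates 2 and 3. Against solvent it was also higher at conc 3 to 7 of cln, by 0.89 to 1.51 on the log2 scale. With cln it was 391 to 601 CPM at conc 2, 1517 to 1628 CPM at conc 3 and 572 to 596 CPM at conc 8. With thx it was 2261 to 2486 CPM at conc 6, and at the same position smet wells averaged 3552 CPM when pooled. It was the gene that passed in the test of row H against rows A to F of the solvent wells (log2 1.39, edgeR FDR 1.5e-05), 1 of 2864 tested or 0.0349%. Row G gave 0 calls with edgeR, with 115 of 2864 genes at an unadjusted p below 0.05. A share of about 0.05 passes that limit with no difference, and no other tool was run for row G. One well with diz conc 1 at the position of cln conc 1 held 3037 CPM.

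The direct comparison asked where the related chemicals differ at the same step, at concentrations that differ 1.17-fold. Over the 2 pairs, with p-values adjusted over the genes of both, 17 genes passed at conc 1, 0.329% of 5175, and 4 at conc 2, 0.0773%. At conc 1, 16 of the 17 were higher with cln and 1, ENSOMYG00000034054, was higher with thx. For the 13 of these with more than 3 counts in the thx wells, the differences ranged from 0.89 to 2.50 on the log2 scale. For the 2 with no count in the thx wells, a limit of 3 counts over the group gives a level with cln at least 3.58-fold and at least 2.82-fold higher. One gene had 1 count with thx and 56 with cln, a ratio of 15.9 with an exact 95% interval of 2.75 to 641 for counting error only. The median of the 16, with the 2 at their bounds, was 1.20, where the median over all genes was 0.23. Of these 16 genes, 4 were called higher than solvent with cln, where 0.29% of all genes tested were. With thx, 7 were called lower than solvent, where 0.386% of all genes tested were. The 16 were picked on the same conc 1 wells, so these counts are no independent support. Among the 16 were 3 of the 4 most counted IDs of the series, whose values are uncertain if near-identical copies share reads, since the counting method is not given.

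With DESeq2's size factors in the same test, 5 genes were higher with cln and 3 with thx, so the number of calls and their split depended on the scaling. When each chemical was first set against its own conc 6 to 8 wells, 6 of the 17 passed the FDR, 0.116% of all genes tested. The fitted differences of the 16 were above 0 with 95% intervals that did not include 0. These genes were picked on the same conc 1 wells, so those intervals are no independent support. Without cln replicate 1 the count of calls was 7, without cln replicate 2 or 3 it was 4, and without thx replicate 2 it was 6. Without thx replicate 1 or 3 the count shifted as well, and rested on 1 thx conc 1 well.

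**Figure D4:**
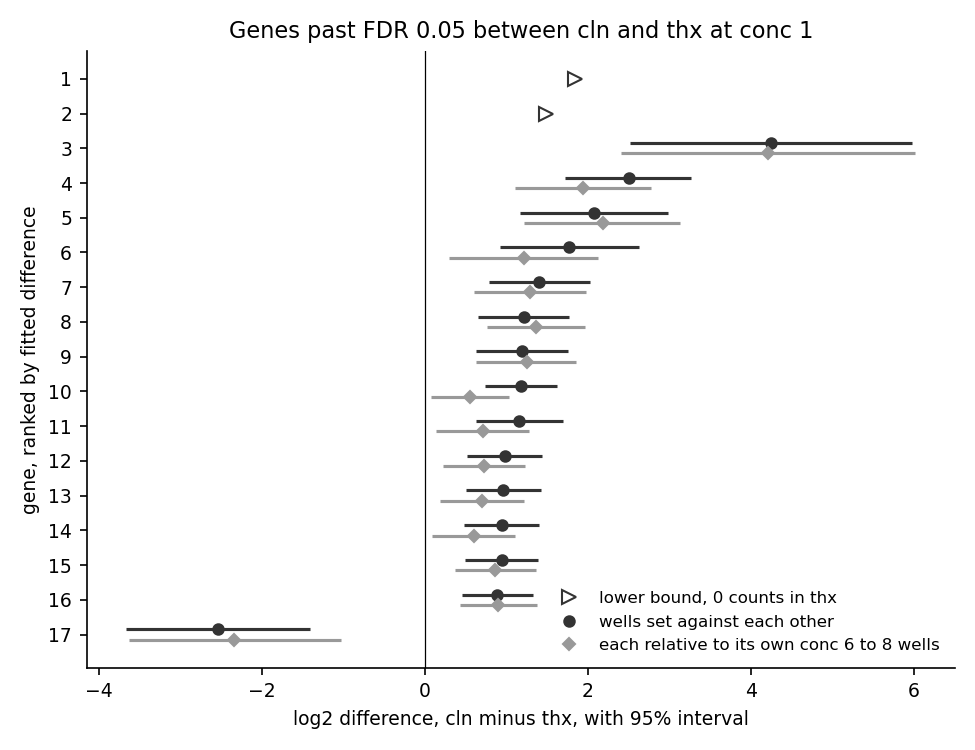
Log2 difference between cln and thx at conc 1 with its 95% interval for the 17 genes past the FDR, ranked by fitted size; open triangles are lower bounds for the 2 genes with no count with thx, dark points set the wells against each other and grey points use each chemical's own conc 6 to 8 wells as reference. Of the 17, 16 lie above 0 (higher with cln), 13 of them with more than 3 counts in thx between 0.89 and 2.50, and 1 lies at -2.54.

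At conc 2, 3 genes were higher with cln, by 1.25 to 2.12 on the log2 scale, and ENSOMYG00000046597 was higher with thx. Of the 3, all were called higher than solvent with cln, where 0.251% of all genes tested were. The 3 were picked on the same conc 2 wells, so this count is no independent support. At cln conc 8 they were also above solvent, by 1.02 to 1.66 on the log2 scale. The median difference fell from 1.97 to 0.66 when each chemical was set against its own conc 6 to 8 wells. Only ENSOMYG00000046597 then passed the FDR (-1.19, edgeR FDR 0.0033).

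For most genes the data cannot show whether the chemicals act alike. The 95% interval of the difference reached a median of 2.02 log2 to either side at conc 1 and 1.54 at conc 2. It lay within 2-fold in either direction for 243 genes, 4.7%, at conc 1 and for 623 genes, 12%, at conc 2. The p-values measure the spread left between wells once group and plate differences are taken out, pooled over all groups, solvent included. The 8 solvent wells of a plate entered as separate wells, although a plate is taken as 1 passage. The p-values therefore do not measure how levels vary between passages. At each step a chemical had wells of 3 passages, or 2 where a well was left out.

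Trends over all 8 steps used each library as its own reference. The slope on the dilution step passed the FDR for 2 genes that rose (0.0486%) and 1 that fell (0.0243%) with cln, 0.0729% of 4116 tested. With thx it passed for 2 that rose (0.0486%) and 14 that fell (0.34%), 0.389% in all. With DESeq2's size factors the split for thx was 9 up and 5 down. The difference of the slopes passed for 0 genes with edgeR. Of the 4116 tested, 227 were at an unadjusted p below 0.05, a limit that a share of about 0.05 passes with no difference. No other tool was run for the difference of the slopes. Without cln replicate 2 or replicate 3 the count for cln was 1, and for thx it was 5 without replicate 3 and 26 without replicate 1.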

How the data were processed

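The authors deposited tables of whole-number counts, a row per Ensembl gene ID and a column per well, and the same solvent wells recur in the table of each chemical: of 381 repeated columns, 0 differed. Library preparation used a QIAseq UPXome kit, per the labels' protocols, which adds a code to each well before pooling. The aligner, the counter and the annotation release: not given in the sources used here. Reads of near-identical gene copies may have been split between them.

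Columns were matched to samples by library and well in the labels. Plates follow from the library numbers, since the labels' replicate numbers do not match plates. Wells under 24094.8 counts were left out. No wells looked like repeats of 1 library: in 324 within-group pairs, the chi-square of their counts divided by its degrees of freedom was at least 1.66. Exposures were repeated over 3 cell passages, per the design text, taken here as the 3 plates of a batch. The plate pairs the wells. Each well's deviation from its group mean (1447 genes) had a median correlation of 0.226 with wells in other libraries of the plate. It was 0.267, 0.171 and 0.251 on plates 1, 2 and 3. The median of -0.118 with wells of other plates largely follows from taking deviations within groups of 1 well per plate, and is no further support.

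The test was edgeR 4.0.16 in R 4.3.3 (quasi-likelihood, TMM, filterByExpr, two-sided) in 1 model of all cln, thx and batch 1 solvent wells with plate as a block, and the FDR was below 0.05 within a contrast (over both pairs for the direct comparison). CPM are counts per 1e6 of the well's total, without TMM. Standard errors and 95% intervals come from the test statistic. Totals of a step were compared with the other wells of the chemical by exact permutation within plates. Between the chemicals, relative totals were permuted without pairing by plate. Trends were fitted with an intercept per library. Alternatives included DESeq2 1.42.0. Scripts were tested on simulated counts. Python 3.11.15 (pandas 2.3.3, matplotlib 3.10.9) was used for summaries and plots.

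Members, rules and tests were chosen with earlier results of these data known. The rule for named genes took, for each chemical at conc 1, the largest rise and the largest fall among genes past the FDR. These genes needed at least a 2-fold change and a mean log2 CPM of at least 1. They also needed the same direction on every plate with a well kept. The thx conc 1 well left out on plate 1 was not used for this. The rule gave 4 IDs, and 4 more were chosen after their values were seen. The lists of pathway genes and cell markers could not be used without gene names.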

Additional observations from a re-analysis of the deposited data

Results flagged for a closer look

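A test of the difference itself between cln and thx was passed by 17 genes at conc 1 and by 4 at conc 2 (edgeR, adjusted over both pairs). Among the genes described, ENSOMYG00000010369 had 0 counts in both thx wells kept, so that its fitted log2 difference of 7.45 is no measured size. A limit of 3 counts allows a level at least 3.58-fold higher with cln, and with the left-out thx well kept the fitted value was 3.13 (edgeR FDR 0.0827). The call of this gene was lost in 8 alternatives and held in 7. ENSOMYG00000009413 differed by 2.50, higher with cln in all 3 wells. ENSOMYG00000034054 differed by -2.54 at conc 1 and ENSOMYG00000046597 by -1.20 at conc 2, both higher with thx in every well kept. Both chemicals lie in different libraries and plate columns at each step, which cannot be told apart from the chemical.

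In data outside these comparisons, ENSOMYG00000046597 was high at the plate position of thx conc 2 on the 3 plates of the other batch, where the chemical was smet. The lowest of these 3 wells held 2413 CPM, against 698 to 1475 CPM in the batch 1 solvent wells. The part of the well position or its code in this gene's level was not tested.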

How the results depend on the processing

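Across 22 alternatives of the counts, no named gene changed direction: of 247 values of named genes, 200 kept their side of the FDR and 47 lost it. The named genes were picked as passing in the main fit, and most wells recur in the alternatives. A value could thus only be kept or lost, and these numbers are no independent support. Counts of calls moved more. The plate pairs the wells, and with no replicate block the counts were 6 for cln conc 1, 0 for cln conc 2, 6 for thx conc 1, 1 and 0 between the chemicals at conc 1 and conc 2, and 1 for the trend of thx. Of the named genes, the fit without the block lost the differences between the chemicals of ENSOMYG00000009413 (2.36, edgeR FDR 0.0779), ENSOMYG00000046597 (-1.19, edgeR FDR 0.0779), ENSOMYG00000010369 (edgeR FDR 0.0779) and ENSOMYG00000034054 (-2.25, edgeR FDR 0.669), and the calls against solvent of ENSOMYG00000021468 (edgeR FDR 0.0719) and ENSOMYG00000035178 (edgeR FDR 0.0849). With no filter on low counts they were 7 for cln conc 1, 44 for thx conc 1, 4 for thx conc 2, 8 between the chemicals at conc 2, and 43, 204 and 16 for the trends of cln, of thx and their difference. With all wells kept they were 108 for thx conc 1, 26 between the chemicals at conc 1 and 45 for the trend of thx. Leaving out the 8 wells under 25% of the median total, chosen after seeing the data, gave 9 for thx conc 1, 2 between the chemicals at conc 1, and 6 and 5 for the trends of cln and thx.

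DESeq2 called 2 genes for thx conc 2, and 5 and 2 between the chemicals at conc 1 and conc 2; its size factors in edgeR gave 8 between them at conc 1 and 5 for the trend of cln. Thinned wells gave 7, 8 and 11 for cln conc 1, cln conc 2 and thx conc 1, and 2 between the chemicals at either step. Plate row as a term gave 10, 5, 46 and 2 for cln conc 1, cln conc 2, thx conc 1 and thx conc 2. Own conc 6 to 8 wells as reference gave 5 for cln conc 2, 95 for thx conc 1, and 6 and 1 between the chemicals. Solvent wells summed per plate gave 45 and 2 for thx conc 1 and conc 2, a model of conc 1, conc 2 and solvent wells alone gave 7 between the chemicals at conc 1, and without the solvent wells of plate 1 the counts were 25 for cln conc 2 and 44 for thx conc 1. The cause of these shifts was not tested. Leaving out each replicate gave 8 to 14 for cln conc 1, 5 to 8 for cln conc 2, 7 to 58 for thx conc 1, 1 to 2 for thx conc 2, 3 to 21 and 3 to 5 between the chemicals at conc 1 and conc 2, 1 to 4 and 5 to 26 for the trends of cln and thx, and 0 to 1 for their difference; where 1 thx conc 1 well remained, it was assumed to vary like the other groups. Against the solvent wells of the plate the totals of cln were -0.55 (conc 1) and -0.30 (conc 2) on the log2 scale. The 2 wells of thx conc 1 together held 116679 counts, where 3 counts are 25.7 CPM, so that lower levels could not be measured there.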
